A study of Mus musculus with 4 samples.

Results

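The genes described here encode chaperones, folding enzymes and quality control factors of the endoplasmic reticulum (ER), together with the transcription factor XBP1. They were taken from the expression table by their symbols, Hspa5, Hsp90b1, Calr, Canx, Pdia3, Pdia4, Pdia6, Dnajb9, Herpud1 and Xbp1, and all 10 were found among the 15500 listed genes. The data came from livers of male Kunming mice, an outbred stock, that were bought at 5 weeks of age, acclimated for 1 week and then kept for 28 days in groups of 6. The Vehicle group ate chow supplemented with 1.5% (w/w) linoleic acid, with vehicle injections where these applied. The CLA group ate chow with 1.5% (w/w) conjugated linoleic acid (CLA), a mixture of isomers of that fatty acid. The GW6471 group ate the linoleic acid diet and was injected intraperitoneally each day with 20 mg/kg of GW6471, an antagonist of the nuclear receptor PPARα, and the CLA+GW6471 group had the CLA diet with the same injections. The sampling time given in the methods was zeitgeber time 8. The table holds 1 library for each of these 4 conditions, and whether it stands for 1 mouse or a pool was not stated. The groups that received GW6471 are described in the sample labels alone.

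Proteins that enter the secretory pathway fold in the ER with the help of BiP (Hspa5) and GRP94 (Hsp90b1), of lectin chaperones that hold glycoproteins, and of protein disulfide isomerases that form and rearrange disulfide bonds. When unfolded proteins accumulate, the membrane sensors IRE1, PERK and ATF6 start the unfolded protein response, in which IRE1 splices the Xbp1 transcript and the resulting factor, with cleaved ATF6, raises the transcription of chaperone and degradation genes. Hepatocytes secrete most plasma proteins and are rich in these chaperones.

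Expression was given as FPKM, which divides the fragments of a gene by its transcript length and by the total mapped, so levels of different genes can be set side by side. Differences between libraries are log2 ratios of FPKM + 0.1, and a gene was called higher or lower from 1.5-fold. With 1 library per condition there was no replicate error and no test, and every difference below compares those libraries, not the conditions. The depth was estimated at 18760000 to 19260000 reads per library from the steps between low values. This gives 588 to 40249 estimated reads for the 10 genes. The 95% intervals printed beside a ratio cover counting error in these estimates only, and 65.6% of 9690 genes lay beyond theirs in CLA against Vehicle. The labelled tissue was checked against 12 hepatocyte genes, of which 10 were listed. Only 4 of them, Alb, Trf, Fgb and Apob, had a mean of at least 1 FPKM. The other listed ones, Ttr, Apoa1, Fga, Cyp2e1, Cps1 and Tat, had means under 1 FPKM, which goes against a profile of whole liver. Among these, Apoa1 reached 2.15 FPKM in CLA and Tat 1.04 in GW6471. The plasma cell and B cell genes Igj, Mzb1, Cd79a and Cd79b, from a secretory cell lineage rich in ER chaperones, were each under 1 FPKM, and summed to between 0.08 and 0.15 FPKM in the 4 libraries.

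The promoters of these genes are shown first, because the ER stress response element, ERSE, is the sequence through which ATF6 and XBP1 act on many chaperone genes. It consists of CCAAT and CCACG separated by 9 bases, and the related ERSE-II of ATTGG and CCACG separated by 1 base. Exact matches on either strand were searched in the RefSeq windows (GRCm38.p6) from 250 bases before to 50 bases after each start site, which covered all 10 genes. The windows were placed in NCBIM37 (mm9), the build of the expression data, by exact match. ERSE was found in the windows of Hspa5, Hsp90b1, Calr, Canx and Pdia6, which are 5 of the 10 genes. Over all 32851 windows of that length the share was 0.119%, or 39 windows. Among the 10794 windows of genes with a mean of at least 1 FPKM it was 0.139%. ERSE was searched because it is already known from chaperone genes. Its presence in these windows was therefore likely beforehand, and the shares are a description only. Of 53 other genes of ER folding and quality control with a window, 5 held it, Creld2, Derl3, Dnajc3, Ero1lb and Syvn1. Herpud1 held ERSE-II, which occurred in 0.0365% of all windows. The UPRE, a site of XBP1 searched as TGACG followed directly by TGG, was in none of the 10 windows and in 0.676% of all. The elements are printed 5′ to 3′ on the strand that carries the match, with their fixed parts in capitals.
Hspa5: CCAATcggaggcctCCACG
Hsp90b1, distal: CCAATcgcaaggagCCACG
Hsp90b1, proximal: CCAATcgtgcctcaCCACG
Calr: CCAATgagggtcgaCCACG
Canx: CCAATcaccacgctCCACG
Pdia6: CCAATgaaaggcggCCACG
Herpud1, ERSE-II: ATTGGgCCACG

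In NCBIM37, the Hspa5 element lay at chr2:34627545-34627563 on the plus strand, inside an exon of a non-coding transcript of that gene in GENCODE vM1. The element of Calr was at chr8:87370974-87370992 on the plus strand, that of Canx at chr11:50139302-50139320 on the minus strand and that of Pdia6 at chr12:17273297-17273315 on the plus strand, all in intergenic sequence. The ERSE-II of Herpud1 was at chr8:96910277-96910287 on the plus strand, within an intron of Gm15890, a non-coding gene on the opposite strand. Hsp90b1 was the member with a pair of elements, in opposite orientation. They lay in intergenic sequence of its promoter, chr10:86168255-86168439, printed here on the minus strand, the strand of the gene, because it shows both elements within 185 bases. The capitals mark the fixed parts of ERSE, and the second element reads in reverse.
Hsp90b1 promoter: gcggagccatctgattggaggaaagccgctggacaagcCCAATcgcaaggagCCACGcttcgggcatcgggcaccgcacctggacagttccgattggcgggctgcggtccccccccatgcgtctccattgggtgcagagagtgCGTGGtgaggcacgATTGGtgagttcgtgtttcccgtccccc
No exact match was found in the windows of Pdia3, Pdia4, Dnajb9 and Xbp1, and elements with a differing base were not searched.

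**Figure D1:**
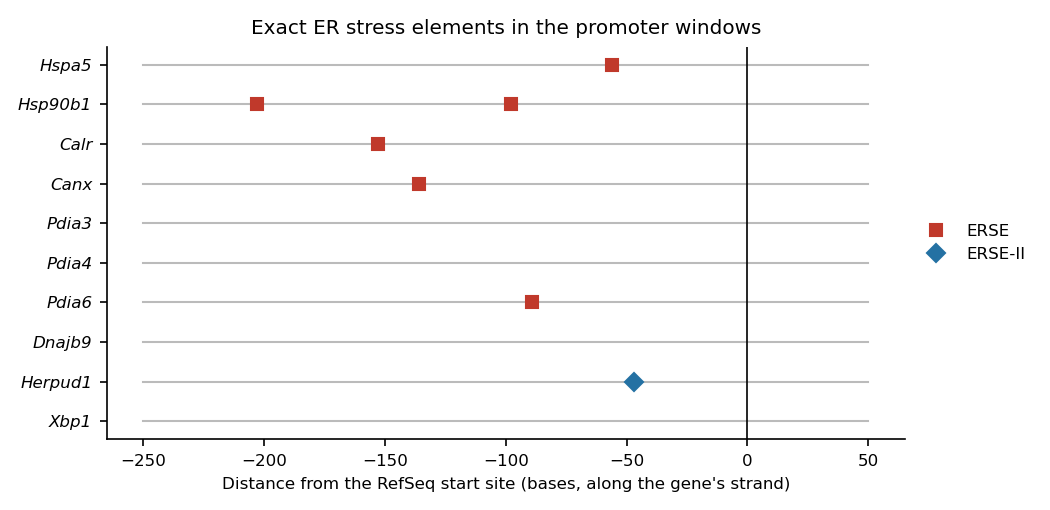
Positions of exact ERSE (squares) and ERSE-II (diamond) in the promoter windows of the 10 genes, by distance in bases from the RefSeq start site (vertical line) along the strand of each gene. The elements lie before the start site, with centres from 203 bases upstream in Hsp90b1 to 47 bases upstream in Herpud1, and 4 genes have none.

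All of the genes but Dnajb9 were among the strongly expressed genes of these libraries. The mean over the 4 libraries ran from 19.5 FPKM for Dnajb9 to 745 FPKM for Hspa5, against a median of 5.97 FPKM over all listed genes. Each was above 1 FPKM in every library. Hspa5 held rank 105 of the 15500 genes, Herpud1 rank 1245 and Dnajb9 rank 4209. In descending order of the mean the genes were Hspa5, Hsp90b1, Calr, Pdia3, Canx, Pdia6, Xbp1, Pdia4, Herpud1 and Dnajb9. Of the 9 pairs of neighbours in this order, 5 had ranges over the libraries that overlapped. The 4 pairs with separate ranges were Hspa5 and Hsp90b1, Calr and Pdia3, Canx and Pdia6, and Herpud1 and Dnajb9. CLA was the highest library for 6 genes (34.7% of all genes) and GW6471 for 4 (18.9%). The lowest library was CLA+GW6471 for 6 genes (27.5% of all genes), CLA for Hspa5 and Dnajb9 (34.6%) and Vehicle for Calr and Herpud1 (17.4%). Within a gene, the highest library exceeded the lowest by 1.15-fold for Canx to 1.85-fold for Pdia4.

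**Figure D2:**
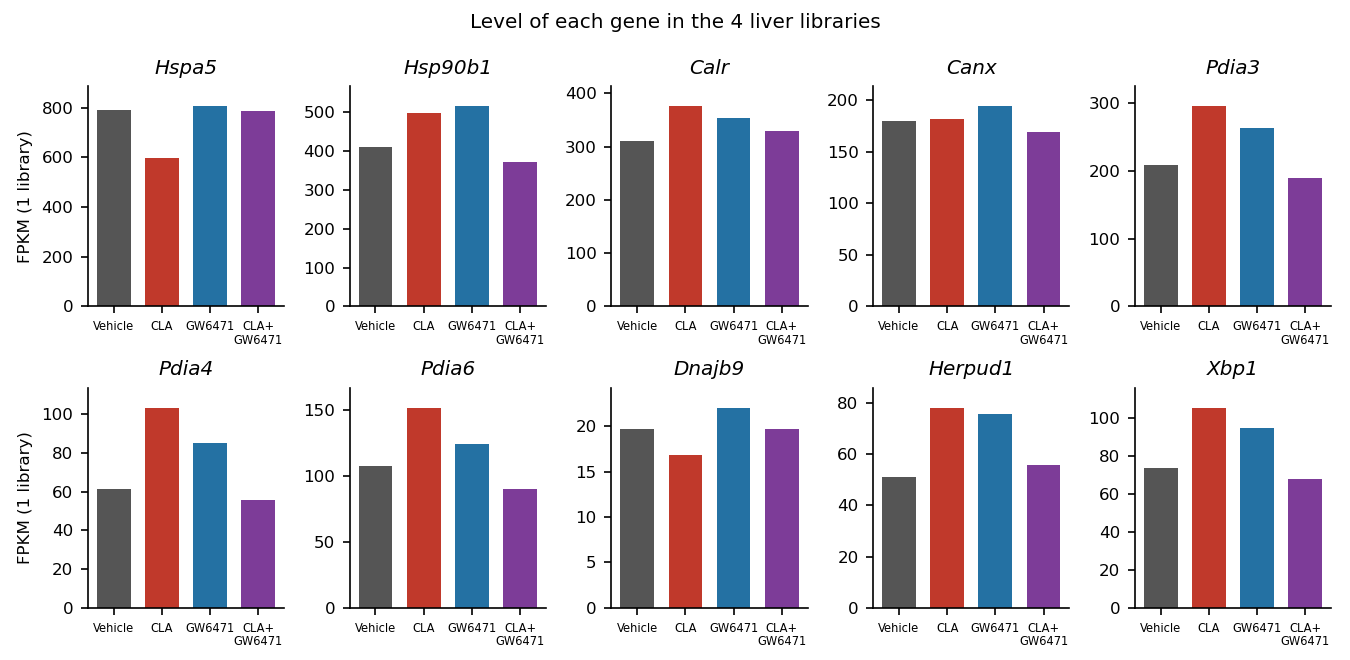
FPKM of each of the 10 genes (vertical axes, each from 0, with 1 bar per library) in Vehicle, CLA, GW6471 and CLA+GW6471. Of the genes, 6 are highest in CLA and 4 in GW6471, while Hspa5 and Dnajb9 are lowest in CLA.

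In NCBIM37 the 10 genes lie on 6 chromosomes. Hspa5 is at chr2:34627490-34632051 and Pdia3 at chr2:121239511-121264423, both on the plus strand. Pdia4 is at chr6:47746141-47763511 on the minus strand. Calr is at chr8:87365749-87370833 on the minus strand and Herpud1 at chr8:96910338-96919277 on the plus strand. Hsp90b1 is at chr10:86152954-86168254 on the minus strand. Canx is at chr11:50107969-50139175 on the minus strand and Xbp1 at chr11:5420662-5425896 on the plus strand. Dnajb9 is at chr12:45306884-45311055 on the minus strand and Pdia6 at chr12:17273351-17291576 on the plus strand.

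The genes for the ER members of the HSP70 and HSP90 families differed in direction under CLA. Hspa5 encodes BiP, the HSP70 chaperone that binds nascent chains and holds the stress sensors inactive. It stood at 790.15 FPKM in Vehicle, 595.91 in CLA, 806.45 with GW6471 and 786.66 with the combination. The CLA library was thus apart from the other three, which lay close together. The log2 ratio of CLA to Vehicle was -0.41 (95% counting interval -0.43 to -0.39), and that of CLA+GW6471 to CLA was 0.40 (0.38 to 0.42). Hsp90b1 encodes GRP94, which folds a narrower set of clients such as integrins and Toll-like receptors. Its values were 411.44 FPKM in Vehicle, 498.58 in CLA, 516.39 with GW6471 and 371.17 with the combination. Hsp90b1 was therefore higher in both single treatments and lowest in the combination. The log2 ratios to Vehicle were 0.28 (0.25 to 0.30) for CLA and 0.33 (0.30 to 0.35) for GW6471. In CLA+GW6471 against GW6471 the log2 ratio was -0.48 (-0.50 to -0.45).

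The lectin chaperones varied least. Calreticulin (Calr), the soluble lectin that also stores calcium, had 311.36 FPKM in Vehicle, 376.41 in CLA, 354.50 with GW6471 and 329.95 with the combination. Its log2 ratio was 0.27 (0.24 to 0.31) in CLA against Vehicle and -0.10 (-0.14 to -0.07) in CLA+GW6471 against GW6471. Calnexin (Canx), the membrane-bound lectin, had 179.81, 181.90, 194.50 and 169.54 FPKM in the same order of libraries. Its level in CLA was not distinguishable from that in Vehicle by counting error alone, with a log2 ratio of 0.02 (-0.02 to 0.05).

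The protein disulfide isomerases showed the widest range. Pdia3 (ERp57), which works with calreticulin and calnexin on glycoproteins, had 209.12 FPKM in Vehicle, 296.08 in CLA, 263.98 with GW6471 and 189.60 with the combination. Pdia4 (ERp72), an isomerase that associates with BiP and GRP94, had 61.56 FPKM in Vehicle, 103.32 in CLA, 85.22 with GW6471 and 55.88 with the combination. Pdia6 (P5), which also associates with BiP and limits the activity of IRE1, had 107.43, 151.61, 123.97 and 90.35 FPKM in that order. All 3 isomerases had the same order, with CLA highest, GW6471 next, then Vehicle, and CLA+GW6471 lowest. The share of all genes with this order was not counted. Pdia4 was 1.68-fold higher in CLA than in Vehicle, a log2 ratio of 0.75 (0.68 to 0.81). The log2 ratio was 0.50 for Pdia3 (0.47 to 0.54) and 0.50 for Pdia6 (0.44 to 0.55), both under the 1.5-fold limit. Against CLA, the combination was lower by 1.56-fold for Pdia3, 1.85-fold for Pdia4 and 1.68-fold for Pdia6.

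The genes of protein degradation again went in different directions. Herpud1 encodes a membrane protein of the ERAD complex, which passes misfolded proteins to the proteasome. It had 51.21 FPKM in Vehicle, 78.24 in CLA, 75.78 with GW6471 and 55.81 with the combination. Both single treatments were near 76 to 78 FPKM and the other libraries near 51 to 56. Its log2 ratio to Vehicle was 0.61 (0.53 to 0.70) for CLA and 0.56 (0.48 to 0.65) for GW6471. Dnajb9 (ERdj4), a J-domain partner of BiP and a target of XBP1, had 19.66 FPKM in Vehicle, 16.80 in CLA, 22.05 with GW6471 and 19.64 with the combination. Like Hspa5, it was lowest in CLA, at a log2 ratio to Vehicle of -0.23, with a wide counting interval (-0.39 to -0.07). Vehicle and CLA+GW6471 were nearly equal for this gene.

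Xbp1, the factor at the end of the IRE1 branch, had 73.80 FPKM in Vehicle, 105.33 in CLA, 94.55 with GW6471 and 67.94 with the combination. This is the order of the isomerases. The log2 ratio was 0.51 (0.44 to 0.58) in CLA against Vehicle, 0.36 (0.29 to 0.43) in GW6471 against Vehicle and -0.63 (-0.70 to -0.56) in CLA+GW6471 against CLA. The table gives 1 value per gene, so spliced and unspliced Xbp1 transcripts were not separated, and these values say nothing of the amount of active XBP1. Dnajb9, named above as a target of XBP1, was lower in CLA while Xbp1 was higher. It was 1 of only 2 of the 10 genes that were lower in CLA, and the targets of XBP1 were not examined as a set.

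CLA against Vehicle asks what the CLA diet changed. The median log2 ratio of the 10 genes was 0.39, against -0.007 over 10355 genes with a mean of at least 1 FPKM. Higher levels in CLA were found for 8 of the 10 genes, against 48.9% of all genes. Pdia4 and Herpud1, 2 of the 10, were at least 1.5-fold higher, where 7.3% of all genes were, and 0 were at least 1.5-fold lower, where 4.95% were. The call of Herpud1 was lost with the libraries scaled to a common FPKM sum, at a log2 ratio of 0.58, and its counting interval spanned the limit. From 1.2-fold, 7 of the 10 were higher (22.3% of all genes) and Hspa5 was lower (21.7%). In bulk RNA such as this, a change in the amount of RNA per cell and a change in the share of a cell type cannot be told apart. The values of single genes lay within the range that held the central 95% of all genes, -0.74 to 0.89.

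GW6471 against Vehicle asks what the antagonist changed on the control diet. All 10 genes were above Vehicle in GW6471, as were 49.2% of all genes, with a median log2 ratio of 0.27. Of the 10 genes, 0 reached 1.5-fold, where 3.28% of all genes were higher and 5.38% differed in either direction, and Herpud1 came nearest at 1.48-fold and passed that limit with the common FPKM sum, at a log2 ratio of 0.61. From 1.2-fold, 5 were higher, Hsp90b1, Pdia3, Pdia4, Herpud1 and Xbp1, against 14.7% of all genes. Hspa5 differed by a log2 ratio of 0.03 (0.01 to 0.05).

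CLA+GW6471 against CLA asks what the antagonist changed on the CLA diet. The median log2 ratio was -0.46. The 3 isomerases and Xbp1, 4 of the 10, were at least 1.5-fold lower, against 9.15% of all genes, and 0 were at least 1.5-fold higher, against 6.84%. From 1.2-fold, 6 were lower (24.3% of all genes) and Hspa5 was higher (24.5%). With Dnajb9, at a log2 ratio of 0.22, 2 of the 10 genes were higher, as were 50.9% of all genes. CLA+GW6471 against GW6471 asks what CLA changed in mice that received the antagonist. All 10 genes were lower in the combination, as were 49.3% of all genes, with a median of -0.45. Pdia4 alone was at least 1.5-fold lower, at a log2 ratio of -0.61 (-0.68 to -0.54), against 3.88% of all genes, and 0 were at least 1.5-fold higher, against 2.81%. From 1.2-fold, 6 were lower, against 17.7% of all genes. This comparison shares the GW6471 library with that against Vehicle and the CLA+GW6471 library with that against CLA, so these counts are not separate evidence.

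**Figure D3:**
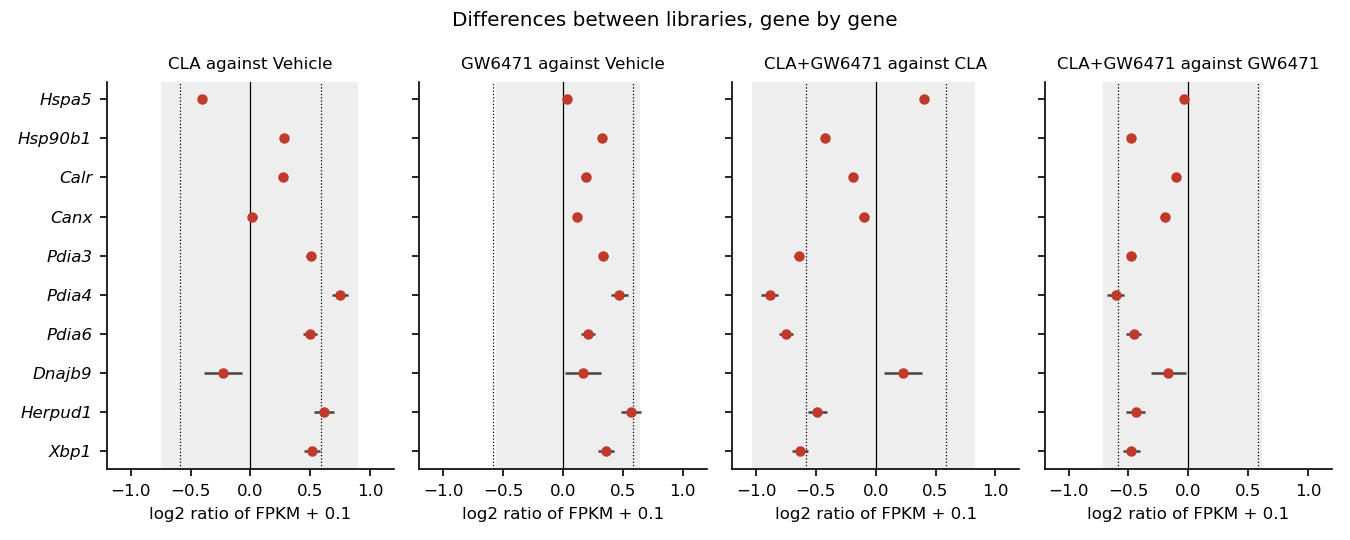
Log2 ratios of FPKM + 0.1 (horizontal axes) for the 10 genes in the 4 comparisons, with points for the ratio and bars for the 95% counting interval. Grey bands hold the central 95% of 10355 genes and dotted lines mark 1.5-fold. The isomerases, Herpud1 and Xbp1 lie to the right in CLA against Vehicle, with Hspa5 and Dnajb9 to the left, and all 10 genes lie left of 0 in CLA+GW6471 against GW6471.

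In CLA+GW6471 against Vehicle the log2 ratios of the 10 genes ran from -0.25 for Pdia6 to 0.12 for Herpud1, and 0 of them reached 1.2-fold in either direction, against 10.3% of all genes, so most genes of the table were also within that limit. Beyond their counting intervals, 6 of the 10 genes were lower in the combination and 2, Calr and Herpud1, were higher, where 32.5% of all genes lay beyond theirs in either direction. Intervals are narrower for strongly expressed genes such as these. For Hspa5 and Dnajb9 the interval included 0. The 10 genes summed to 2216 FPKM in Vehicle and 2137 in CLA+GW6471, and to 2404 in CLA and 2537 in GW6471.

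Both directions of CLA against Vehicle occurred among genes with and genes without an exact ERSE. Among the 5 genes that held one, the log2 ratio of CLA to Vehicle ran from -0.41 for Hspa5 to 0.50 for Pdia6. Herpud1, with ERSE-II, was at 0.61. Among the 4 genes without an exact match of either element it ran from -0.23 for Dnajb9 to 0.75 for Pdia4. Whether the elements bear on these ratios was not tested.

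The wider system of ER folding and quality control was described by 66 further genes in 6 lists chosen by function, of which 65 were listed and 62 had a mean of at least 1 FPKM. In CLA against Vehicle, 2 of these were at least 1.5-fold higher and 2 lower, with a median log2 ratio of 0.11. From 1.2-fold, 15 were higher and 3 lower. In CLA+GW6471 against GW6471, 0 were at least 1.5-fold higher and 1 was lower, with a median of -0.07. Over the lists together, these shares were near or below those of all genes. Without a fold limit, 43 of the 62 genes were higher in CLA than in Vehicle, against 48.9% of all genes, and 42 were lower in CLA+GW6471 than in GW6471, against 49.3%.

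Among the lists, the other oxidoreductases had the highest median in CLA against Vehicle, 0.31 over 11 genes, with 7 at least 1.2-fold higher, against 22.3% of all genes, and 0 lower, against 21.7%. P4hb, the classical protein disulfide isomerase and the most strongly expressed of them, had 411.56 FPKM in Vehicle, 586.96 in CLA, 521.89 with GW6471 and 401.06 with the combination, the same order as the isomerases above. Ero1lb, an oxidase that recharges them, had 3.19, 3.63, 3.78 and 2.52 FPKM. The BiP partners and co-chaperones had a median of 0.07 over 10 genes, and both wider genes at least 1.5-fold higher in CLA belonged to this list. Sdf2l1, a component of the BiP and ERdj complexes, had 3.25 FPKM in Vehicle, 7.90 in CLA, 4.56 with GW6471 and 3.27 with the combination. Sil1, the nucleotide exchange factor of BiP, had 10.91, 19.27, 16.10 and 10.25 FPKM. Sil1 was highest in CLA, where Hspa5 itself was lowest. Hyou1, the other exchange factor of BiP in the list, named after its values were seen, had 53.56, 54.26, 55.80 and 52.08 FPKM, a log2 ratio of 0.02 in CLA against Vehicle. Manf, a secreted ER stress factor and the highest of the list, kept between 57.25 and 64.05 FPKM.

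The sensors and factors of the response gave a median log2 ratio of -0.09 over 9 genes for CLA over Vehicle, with 2 at least 1.5-fold lower, Ddit3 and Ern1, against 4.95% of all genes, and 0 higher, against 7.3%. Ddit3 (CHOP), the proapoptotic factor downstream of PERK, had 318.78 FPKM in Vehicle, 195.69 in CLA, 265.73 with GW6471 and 331.54 with the combination. Its log2 ratio of CLA to Vehicle was -0.70. Ern1, which encodes IRE1α and was named after its values were seen, had 41.11, 25.73, 40.03 and 37.35 FPKM, a log2 ratio of -0.67. Atf6, named in the same way, had 51.18, 39.84, 54.22 and 50.02 FPKM. Ern1 and Atf6 were lowest in CLA, as was Hspa5. Eif2ak3, which encodes the third sensor, PERK, and was also named after its values were seen, was highest in CLA instead, with 10.11 FPKM in Vehicle, 13.00 in CLA, 11.44 with GW6471 and 11.03 with the combination. Its log2 ratio of CLA to Vehicle was 0.36 (0.23 to 0.49), so the genes of the 3 sensors did not share a direction. Atf4, the most strongly expressed of the list, varied between 482.25 and 521.71 FPKM.

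The 15 ERAD genes with a mean of at least 1 FPKM centred on a log2 ratio of 0.04 for CLA over Vehicle. In this list, Erlec1, a lectin of ERAD, had the largest log2 ratio, 0.56, with 13.77 FPKM in Vehicle and 20.32 in CLA, and the ATPase Vcp was the highest, at 206.64 and 206.99 FPKM. The 13 genes of the translocon and signal peptidase had a median of 0.14. Here Sec61b was at 185.79 FPKM in the Vehicle library and 263.90 in CLA, while Sec61g, for another channel subunit, was 111.04 FPKM in CLA+GW6471 and 79.62 in GW6471. Sec61a1, for the subunit that forms the pore and named after its values were seen, had 118.51, 127.59, 127.48 and 115.14 FPKM in the order Vehicle, CLA, GW6471 and CLA+GW6471. Ssr2, the highest, had 356.69 FPKM in both Vehicle and CLA+GW6471. The 4 glycan processing genes had a median of -0.03, and Uggt1 and Prkcsh differed by less than 1.2-fold in CLA against Vehicle.

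**Figure D4:**
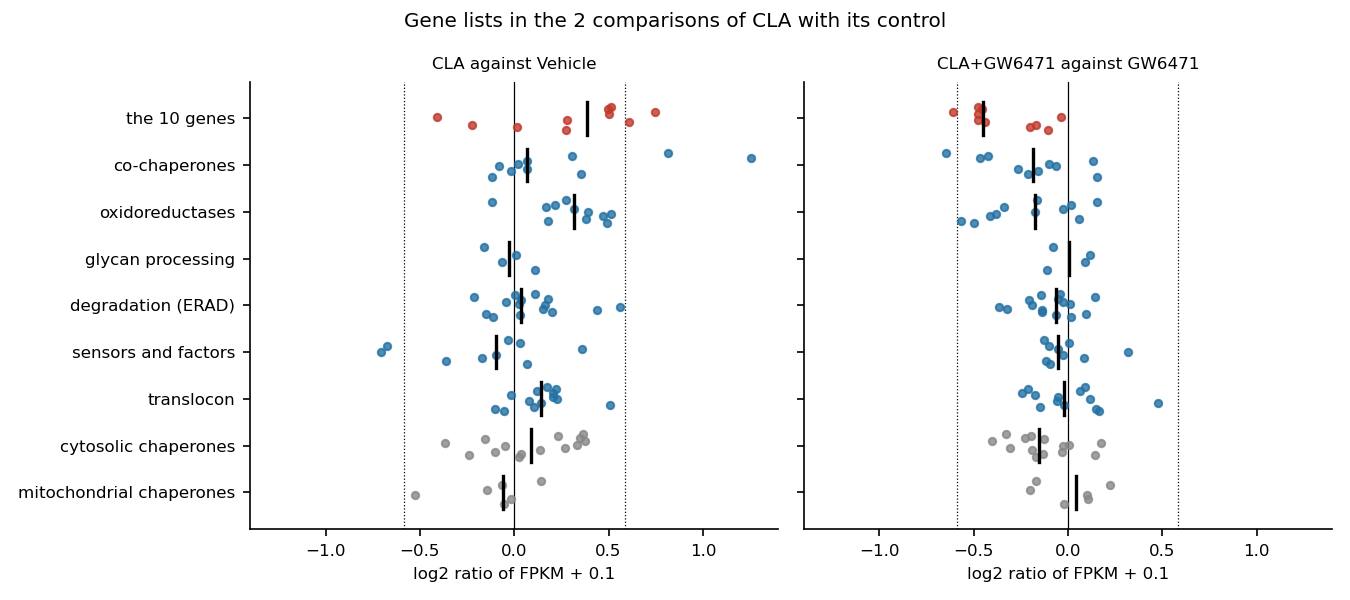
Log2 ratios of FPKM + 0.1 (horizontal axes) for the 10 genes (red), 6 lists of other ER genes (blue) and cytosolic and mitochondrial chaperones (grey), with 1 point per gene of at least 1 FPKM, bars for medians and dotted lines for 1.5-fold. The medians of the 10 genes, 0.39 on the left and -0.45 on the right, lie farther from 0 than those of the other lists.

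Chaperones outside the ER served as a comparison. The 14 cytosolic chaperone genes with a mean of at least 1 FPKM showed median log2 ratios of 0.09 for CLA over Vehicle and -0.15 for CLA+GW6471 over GW6471. In either comparison 0 of them were past 1.5-fold. Of all genes, 7.3% were higher and 4.95% lower in the first comparison, and 2.81% higher and 3.88% lower in the second. With such shares, 0 of 14 genes does not set this list apart. Hsp90ab1, the constitutive cytosolic HSP90, had 718.35 FPKM in Vehicle, 932.98 in CLA, 845.45 with GW6471 and 638.91 with the combination, and reads of the HSP90 genes can be shared with close copies. The 6 mitochondrial chaperone genes had medians of -0.06 and 0.04. Hspa9, the mitochondrial HSP70, had 417.85, 290.03, 371.48 and 399.14 FPKM, with its lowest value in CLA, as for Hspa5. Hspe1, the HSP10 of the same compartment, was between 124.02 and 144.91 FPKM.

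The 4 hepatocyte genes with a mean of at least 1 FPKM, Alb, Trf, Fgb and Apob, had the same order of libraries as the isomerases and Xbp1. How many of all genes had this full order was not counted. Of all genes, 34.7% were highest in CLA and 27.5% lowest in CLA+GW6471, so a shared order does not link these genes. Alb had 679.53 FPKM in Vehicle, 1321.55 in CLA, 1067.32 with GW6471 and 620.17 with the combination. The whole list of 10 listed hepatocyte genes summed to 951, 1817, 1476 and 879 FPKM in the order Vehicle, CLA, GW6471 and CLA+GW6471, nearly all of it from Alb, Trf and Fgb. Of the low ones, Apoa1 had 0.37, 2.15, 0.52 and 0.41 FPKM, highest in CLA, and Tat had 0.89, 0.46, 1.04 and 0.87, lowest in CLA. The macrophage genes Cd68, Emr1 and Csf1r summed to 24.2, 36.6, 25.6 and 25.1 FPKM, nearly all of it from Cd68. The cholangiocyte genes, 4 of 4 listed, summed to 85.6, 66.9, 75.1 and 84.5 FPKM. The lower sum in CLA came mostly from Sox9, at 54.74 FPKM in Vehicle and 34.72 in CLA, while Krt7 had 23.47 and 23.14 and Epcam was higher in CLA, at 7.09 and 8.95. The stellate cell genes, 4 of 5 listed, summed to between 0.79 and 1.21 FPKM. For exocrine pancreas, 2 of 6 genes were listed, Cela1 at 3.88 to 5.80 FPKM and Ctrb1 at 0 to 0.18. The part of these cell types in the chaperone values was not tested.

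Outside all lists, the genes closest to Hspa5 were found by the Euclidean distance between profiles over the 4 libraries, each as log2(FPKM + 0.1) minus its own mean, among 8085 genes with a mean of at least 5 FPKM. They were Dmtf1, Samd8, D14Abb1e, Ankrd52 and Tbpl1, at distances of 0.028 to 0.034. Dmtf1, the nearest, had 19.27 FPKM in Vehicle, 14.31 in CLA, 19.88 with GW6471 and 19.38 with the combination. The genes closest to the median profile of the 10 genes were Katnal1, Pnpla6, Golga2, Usp16 and Aebp1, at distances of 0.023 to 0.040. Katnal1 had 7.04, 9.07, 8.71 and 6.63 FPKM in the same order. With 4 libraries, such likeness is a description only.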

How the data were processed

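RNA-seq libraries were made with a TruSeq kit and sequenced on a HiSeq. For the processing the submitters' notes name mm9, BWA, Bowtie and Cufflinks, and FPKM with 2 decimals for 15500 genes were deposited by the authors. Tool versions, strand use and the gene filter are not given in the sources used here. No columns were left out as those of other samples. The table names no unit, and FPKM was taken from the study's methods and source data. Since FPKM are not counts, no count model was fitted. Here, log2 ratios of FPKM + 0.1 were computed in pandas 2.3.3 under Python 3.11.15, with scipy 1.17.1 for intervals, numpy 2.4.6 for arithmetic and matplotlib 3.10.9 for figures. Background shares used the genes whose FPKM averaged 1 or more.

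The depth was estimated from the steps between low values, using 499 genes with 1 annotated transcript shorter than 1000 nt, 127 to 136 values per library. Reads were then estimated from FPKM and the longest coding transcript in GENCODE vM1, and counting intervals (95%) were exact Clopper-Pearson. The steps were tested on simulated data.

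Each library was assigned to its condition by its label. The 4 comparisons had no test, and CLA+GW6471 against Vehicle was added after the values were seen. The genes, lists and motifs were chosen with earlier results of these data known. Named were the 10 genes, per list the highest gene and the gene with the largest ratio in each comparison of CLA with its control, and the 5 nearest profiles. The alternatives were other pseudocounts, scalings, filters and fold limits.

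In GENCODE vM1, Pdia3 overlaps Catsper2, Pdia6 overlaps Atp6v1c2 and Herpud1 overlaps Gm15890 on the opposite strand. Pdia4 overlaps the microRNA gene Mir704 on its own strand, and Hsp90b1 overlaps non-coding genes on both strands. Reads in the overlapping stretches cannot be assigned to 1 gene without strand, nor with it where both genes share a strand.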

Additional observations from a re-analysis of the deposited data

Results flagged for a closer look

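For 7 of the 10 genes, CLA was on opposite sides of its control without and with GW6471, beyond the counting interval in both pairs of libraries, as were 40.1% of 9690 genes. The log2 ratio for CLA over Vehicle minus that for CLA+GW6471 over GW6471 was 0.75 for Hsp90b1, 0.38 for Calr, 0.98 for Pdia3, 1.35 for Pdia4, 0.95 for Pdia6, 1.05 for Herpud1 and 0.99 for Xbp1. This difference was not tested, since each condition had 1 library. Opposite signs were also common elsewhere, in 73.0% of 10355 genes against 8 of the 10. Hspa5 and Dnajb9 were lower with CLA in both pairs. Of the 17 other genes named in the text by rule, 8 also lay on opposite sides beyond both intervals. The difference was 1.46 for Sil1, 1.72 for Sdf2l1, 0.89 for P4hb, 0.92 for Erlec1, 0.16 for Atf4, -1.02 for Ddit3, 0.78 for Hsp90ab1 and -0.63 for Hspa9.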

How the results depend on the processing

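With another pseudocount, scaling or filter, 23 of 24 medians of the 10 genes moved by less than the typical counting error of a single gene. That yardstick was the median half-width of the intervals of the 10 genes, and no counting error of a median was computed. The exception was CLA+GW6471 against GW6471, at -0.51 with the libraries scaled to a common FPKM sum. That scaling also left 1 gene at least 1.5-fold higher in CLA against Vehicle (6.64% of all genes) and put 1 there in GW6471 against Vehicle (3.87%). At 1.2-fold, 7 genes were higher (22.3% of all genes) and 1 lower (21.7%) in CLA against Vehicle, 5 higher (14.7%) in GW6471 against Vehicle, 1 higher (24.5%) and 6 lower (24.3%) in CLA+GW6471 against CLA, and 6 lower (17.7%) in CLA+GW6471 against GW6471. At 2-fold, 0 of the 10 genes were called in any of these comparisons, where 0.309% to 2.67% of all genes were, by comparison and direction. Of 160 values of single genes, 147 moved by less than their counting error, and the largest move was 0.066. Only Canx in CLA against Vehicle changed sign, to -0.01 with the common sum. No paired analysis was possible because each condition has 1 library. Depth limited Dnajb9 most.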

Other observations

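The balance between these genes within a library, chosen after the values were seen, does not depend on the scaling between libraries. The ratio of Pdia4 to Hspa5 in FPKM was 0.078 in Vehicle, 0.173 in CLA, 0.106 with GW6471 and 0.071 with the combination. The ratio of Hsp90b1 to Hspa5 was 0.52, 0.84, 0.64 and 0.47 in the same order. That of Hspa5 to Hspa8, the constitutive cytosolic HSP70, was 1.14, 0.67, 1.08 and 1.23, so CLA was the library in which BiP transcripts were fewer than those of its cytosolic relative. Hspa8 had 695.87 FPKM in Vehicle, 885.27 in CLA, 746.63 with GW6471 and 637.72 with the combination. The low ratio in CLA thus reflects a higher Hspa8 as well as a lower Hspa5.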
